A study of Homo sapiens with 5 samples.

Results

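The genes described here are 10 surface and secreted markers of monocytes and macrophages: CD14, CSF1R, CCR2, VCAN, CD86, CD163, CD36, CX3CR1, MRC1 and CD4. They were taken by name, with earlier results of these data known. Of the 10, 9 had a row under their current Ensembl ID among the 51055 gene IDs of the deposited count table. MRC1, the mannose receptor of macrophages, was not analysed here. The cells were HL60, an established human promyelocytic leukaemia line, in 3 groups. ZIP cells (n = 2) carried a lentivector whose hairpin is antisense to miR-378a-3p. SCR cells (n = 2) carried the control lentivector, which the labels call both scramble and empty. UNT cells (n = 1) were untransduced. Both vectors encode green fluorescent protein and were introduced by spin transduction with polybrene (8 µg/mL), at a multiplicity of infection of 20, before 2 µg/mL puromycin from day 3 to day 8. UNT cells are described as untransduced only, so vector, spin transduction and puromycin cannot be told apart in any comparison with them. Nothing in the labels says that replicates were separate cultures, so p-values cover only how much these libraries varied, and that variation may be technical.

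Monocytes arise from myeloid progenitors that can also form granulocytes, and HL60 cells keep part of this choice: several inducers turn them into monocyte-like cells, others into neutrophil-like cells. CSF1R carries the growth factor signal on which monocytes and macrophages depend, and CD14 presents bacterial endotoxin to TLR4. CCR2 and CX3CR1 are chemokine receptors that mark classical and patrolling monocytes, CD36 and CD163 are scavenger receptors, and CD86 co-stimulates T cells. CD4 is best known on helper T cells, but human monocytes carry it too.

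The microRNA that the ZIP hairpin targets is printed below as RNA from RefSeq (GRCh38.p14), with its seed, bases 2 to 8, in capitals, because the seed is the stretch that pairs with target mRNAs.
hsa-miR-378a-3p: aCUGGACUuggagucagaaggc
A 7-base match to this seed reads AGTCCAG in a transcript's DNA letters. In GENCODE 29 (GRCh38), the longest annotated 3′ UTR of each of the 9 genes held 0 such matches, while 13.2% of 12076 tested genes with a 3′ UTR held at least 1. Absence of these letters says nothing about other kinds of site.

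Library totals were 24406580 to 30925067 counts, and protein-coding genes held 96.6% to 97.1% of them, although the labels name a kit for small RNA. The targeted locus itself, MIR378A, had 0 and 2 counts in ZIP, 0 and 0 in SCR and 0 in UNT, so it could not check the labels. Replicates lay close together, with a mean chi-square per gene of 1.88 between the ZIP libraries and 2.65 between the SCR libraries, against 88.1 to 151 between libraries of different groups. HL60 identity was read from granulocyte precursor genes: myeloperoxidase, MPO, had 17050 and 16580 CPM in ZIP, 9966 and 9991 in SCR and 19020 in UNT. CPM, the usual depth-scaled count, was computed on library sizes scaled by TMM (trimmed mean of M values). At these depths 3 counts, the floor for a gene without a count, equal 0.098 to 0.125 CPM. The exact intervals of count ratios cover counting error only, and those of log2 fold changes rest on the SE of the fit.

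The genes differed in their levels across the 3 groups. CD14, CSF1R, VCAN, CD86, CD36 and CX3CR1 stood in ZIP between the SCR and UNT levels, or near the UNT level, and were high in SCR and low in UNT. CCR2 was high in both transduced groups. CD4 was high and CD163 scarce in every library. Between ZIP and SCR 7 of the 9 genes were called lower and 1 higher. Of all 14643 genes tested 65.4% were called, 33.2% lower and 32.2% higher, by the edgeR quasi-likelihood test with Benjamini-Hochberg adjustment at 0.05. The median log2 fold change of the 9 was -2.64, and that of all genes tested was -0.0018. VCAN and CX3CR1 passed the filter on low counts through their SCR libraries, so a difference was built into their passing. In these bulk samples, fewer cells of a type and less RNA per cell cannot be told apart.

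**Figure D1:**
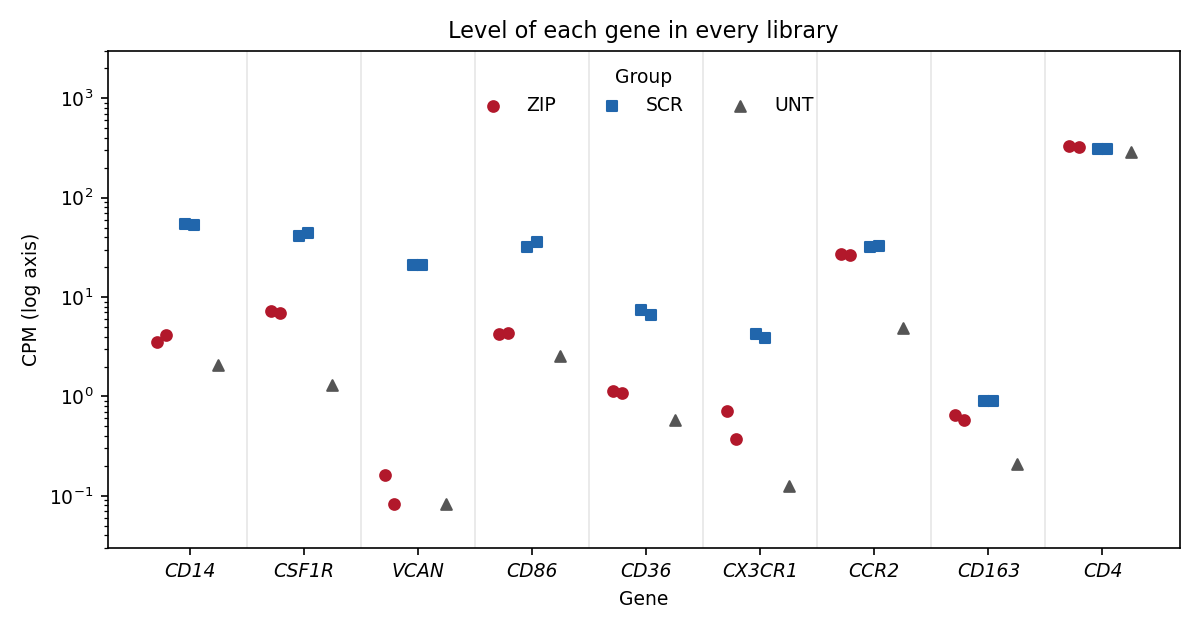
CPM (log axis) of the 9 genes in each library, with ZIP libraries as circles, SCR libraries as squares and the UNT library as a triangle. CD14 sits at 3.49 and 4.17 CPM in ZIP, far under its 54.6 and 53.5 CPM in SCR, while CCR2 stays at 27.0 and 26.7 CPM in ZIP and CD4 is near 300 CPM in all libraries.

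CD14 (ENSG00000170458, chromosome 5, 140631728 to 140633701, minus strand, GRCh38) is the endotoxin co-receptor. It had 3.49 and 4.17 CPM in ZIP, 54.6 and 53.5 CPM in SCR and 2.09 CPM in UNT. ZIP held 7.09% of the SCR level. CD14 changed by -3.83 ± 0.10 (log2 fold change ± SE) in ZIP against SCR (adjusted p = 2.8e-19), 4.69 ± 0.20 in SCR against UNT (adjusted p = 2.3e-19) and 0.86 ± 0.22 in ZIP against UNT (adjusted p = 0.0012), all by edgeR.

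CSF1R (ENSG00000182578, chromosome 5, 150053291 to 150113372, minus strand) is the receptor tyrosine kinase for CSF1 and IL-34. It had 7.18 and 6.90 CPM in ZIP, 41.0 and 43.9 CPM in SCR and 1.29 CPM in UNT. ZIP lay under SCR and above UNT in both libraries. CSF1R fell by 2.59 ± 0.08 on the log2 scale in ZIP against SCR (edgeR adjusted p = 3.7e-17), yet remained 5.44-fold higher in ZIP than in UNT (adjusted p = 8.7e-10). SCR against UNT gave a 32.7-fold rise (adjusted p = 1.0e-18).

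CD14 and CSF1R moved in the same directions by different amounts, CCR2 fell little in ZIP against SCR, and VCAN changed most there. Promoter windows of these genes are therefore printed. Each runs from 250 bases before to 50 after an annotated start (RefSeq, GRCh38.p14), 5′ to 3′ on the gene's strand. Capitals mark matches, on either strand, to GAGGAA (core of the site of PU.1, a myeloid ETS factor), TTGCNNAA (C/EBP) and TGANTCA (AP-1).
CD14, chr5:140633126-140633425, minus strand: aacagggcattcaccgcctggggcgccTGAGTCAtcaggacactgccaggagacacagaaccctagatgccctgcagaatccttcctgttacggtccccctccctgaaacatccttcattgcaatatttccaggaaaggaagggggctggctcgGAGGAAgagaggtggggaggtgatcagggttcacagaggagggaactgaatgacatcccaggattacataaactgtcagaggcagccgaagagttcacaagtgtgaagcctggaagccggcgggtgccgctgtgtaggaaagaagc
CSF1R, chr5:150113316-150113615, minus strand: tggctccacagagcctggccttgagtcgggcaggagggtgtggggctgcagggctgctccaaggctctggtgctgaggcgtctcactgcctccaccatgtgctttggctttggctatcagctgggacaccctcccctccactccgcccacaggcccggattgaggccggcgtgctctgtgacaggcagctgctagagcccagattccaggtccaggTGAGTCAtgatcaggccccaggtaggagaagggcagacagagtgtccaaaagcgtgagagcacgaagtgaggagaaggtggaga
CSF1R, chr5:150086505-150086804, minus strand: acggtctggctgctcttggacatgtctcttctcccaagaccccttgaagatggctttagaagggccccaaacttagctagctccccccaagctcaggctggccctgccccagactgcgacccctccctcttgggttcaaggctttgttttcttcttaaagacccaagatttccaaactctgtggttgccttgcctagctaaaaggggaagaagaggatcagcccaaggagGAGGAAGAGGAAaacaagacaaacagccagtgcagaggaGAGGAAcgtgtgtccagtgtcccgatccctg
CCR2, chr3:46353861-46354160, plus strand: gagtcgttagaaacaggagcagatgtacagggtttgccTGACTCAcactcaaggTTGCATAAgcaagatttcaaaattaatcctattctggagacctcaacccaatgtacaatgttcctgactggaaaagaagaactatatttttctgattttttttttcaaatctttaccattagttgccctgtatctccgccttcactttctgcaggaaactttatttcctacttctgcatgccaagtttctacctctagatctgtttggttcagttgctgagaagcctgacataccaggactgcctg
VCAN, chr5:83471494-83471793, plus strand: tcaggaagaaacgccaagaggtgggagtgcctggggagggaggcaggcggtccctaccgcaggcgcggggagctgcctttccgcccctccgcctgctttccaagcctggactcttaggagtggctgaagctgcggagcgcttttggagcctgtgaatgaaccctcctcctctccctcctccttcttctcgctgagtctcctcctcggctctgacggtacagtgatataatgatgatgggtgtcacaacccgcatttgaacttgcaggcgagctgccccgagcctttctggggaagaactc
The second CSF1R window, at the downstream start, held 3 GAGGAA matches, at -20, -14 and 20 from the start, and the upstream one held 1 AP-1 match at -34. CD14 had GAGGAA at -96 and an AP-1 match at -223. CCR2 had a C/EBP match at -196 and an AP-1 match at -212, and VCAN had none of the 3 motifs. Over all 17 windows of the 8 genes with one, 9 held GAGGAA, 2 the C/EBP motif and 4 the AP-1 motif. Of 35116 windows of the same length, 27.9%, 10.5% and 7.71% held at least 1 match to GAGGAA, the C/EBP motif and the AP-1 motif. The matches are descriptions, not binding sites, and some windows of CD36 overlap.

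VCAN (ENSG00000038427, chromosome 5, 83471465 to 83582303, plus strand) encodes versican, a secreted proteoglycan abundant in classical monocytes. It had 5 and 2 counts in ZIP (0.163 and 0.0827 CPM), 529 and 545 counts in SCR (20.8 and 21.2 CPM) and 2 counts in UNT (0.0834 CPM). Only the SCR libraries stood clear of the floor of 3 counts by more than a few counts. VCAN fell by 7.31 ± 0.52 on the log2 scale in ZIP against SCR (edgeR adjusted p = 1.5e-17), the 15th lowest change among the 14643 genes tested. Without ZIP 1 the value was -7.91. The count ratio was 252 in SCR against UNT, with an exact 95% interval of 69.6 to 2083, and 1.53 in ZIP against UNT, with an interval of 0.291 to 15.1. Exons of VCAN overlap those of the antisense gene VCAN-AS1 over 453 bases, and without strand information their reads cannot be told apart.

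CD86 (ENSG00000114013, chromosome 3, 122055366 to 122121139, plus strand), a ligand of CD28 on T cells, had 4.21 and 4.34 CPM in ZIP, 31.6 and 36.0 CPM in SCR and 2.54 CPM in UNT. Both ZIP libraries lay nearer to UNT than to SCR. The log2 fold change of CD86 was -2.99 ± 0.11 in ZIP against SCR (edgeR adjusted p = 2.3e-16), 3.73 ± 0.20 in SCR against UNT (adjusted p = 1.9e-16) and 0.75 ± 0.22 in ZIP against UNT (adjusted p = 0.0041).

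The scavenger receptors differed in level and in response. CD36 (ENSG00000135218, chromosome 7, 80369575 to 80679277, plus strand), which takes up oxidised lipids and fatty acids, had 1.14 and 1.07 CPM in ZIP, 7.41 and 6.57 in SCR and 0.584 in UNT. It fell by 2.64 ± 0.20 on the log2 scale in ZIP against SCR (edgeR adjusted p = 3.1e-11) and rose by 3.57 ± 0.37 in SCR against UNT (adjusted p = 4.3e-11). In ZIP against UNT its log2 fold change of 0.92 ± 0.41 passed narrowly (adjusted p = 0.042), and 4 of 7 other settings lost that call, with adjusted p-values of up to 0.168.

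CD163 (ENSG00000177575, chromosome 12, 7470813 to 7503893, minus strand), which clears haemoglobin bound to haptoglobin, was scarce everywhere. It had 20 and 14 counts in ZIP (0.653 and 0.579 CPM), 23 and 23 in SCR (0.906 and 0.894 CPM) and 5 in UNT (0.209 CPM). The log2 fold change of -0.53 ± 0.33 in ZIP against SCR was not called (edgeR adjusted p = 0.153), and its 95% interval ran from -1.17 to 0.10. Against UNT it was 2.08 ± 0.69 in SCR (adjusted p = 0.0032) and 1.55 ± 0.70 in ZIP (adjusted p = 0.036). DESeq2 called neither, with adjusted p-values of 0.0759 in SCR and 0.222 in ZIP, and the ZIP call was also lost without ZIP 1 (adjusted p = 0.0879) and with the 2 groups alone (adjusted p = 0.055). CD163 shares 38 exonic bases with its neighbour CD163L1.

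The chemokine receptors differed in the size of their change. CX3CR1 (ENSG00000168329, chromosome 3, 39263494 to 39281735, minus strand), the receptor of CX3CL1, had 22 and 9 counts in ZIP (0.718 and 0.372 CPM), 107 and 100 in SCR (4.22 and 3.89 CPM) and 3 in UNT (0.125 CPM). It fell by 2.83 ± 0.29 on the log2 scale in ZIP against SCR (edgeR adjusted p = 2.3e-09), and without ZIP 1 the value was -3.43. The count ratio was 32.4 in SCR against UNT, with an exact 95% interval of 10.9 to 158, and 4.52 in ZIP against UNT, with an interval of 1.41 to 23.1. The ZIP against UNT call (adjusted p = 0.013) was lost by DESeq2 (adjusted p = 0.0688) and without ZIP 1 (log2 fold change 1.53, against 2.13, adjusted p = 0.125).

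CCR2 (ENSG00000121807, chromosome 3, 46353734 to 46360928, plus strand), the receptor of CCL2, had 27.0 and 26.7 CPM in ZIP, 31.8 and 32.9 CPM in SCR and 4.92 CPM in UNT. Both transduced groups stood well above the untransduced cells, and ZIP kept 82.9% of the SCR level. CCR2 fell by 0.27 ± 0.05 on the log2 scale in ZIP against SCR (edgeR adjusted p = 2.2e-04), with a 95% interval of -0.38 to -0.16 that does not reach the interval of any other gene of the set called lower. It was 6.57-fold higher in SCR than in UNT (adjusted p = 4.0e-16) and 5.45-fold higher in ZIP than in UNT (adjusted p = 8.6e-15).

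CD4 (ENSG00000010610, chromosome 12, 6786858 to 6820808, plus strand) had 329 and 324 CPM in ZIP, 310.3 and 308 in SCR and 288 in UNT. Its log2 fold change in ZIP against SCR, 0.08 ± 0.03, was called (edgeR adjusted p = 0.011). That call was lost when CPM rested on raw library totals (adjusted p = 0.493), without SCR 2 (adjusted p = 0.053) and without ZIP 1 (adjusted p = 0.0771). CD4 was 1.08-fold higher in SCR than in UNT (adjusted p = 0.0069) and 1.14-fold higher in ZIP than in UNT (adjusted p = 3.5e-05). The 9 measured T cell genes CD3D, CD3E, CD3G, CD247, CD2, CD5, CD7, LCK and CD8A together held 1.47 and 1.98 CPM in ZIP, 1.85 and 0.933 in SCR and 1.67 in UNT, far under CD4 in every library.

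**Figure D2:**
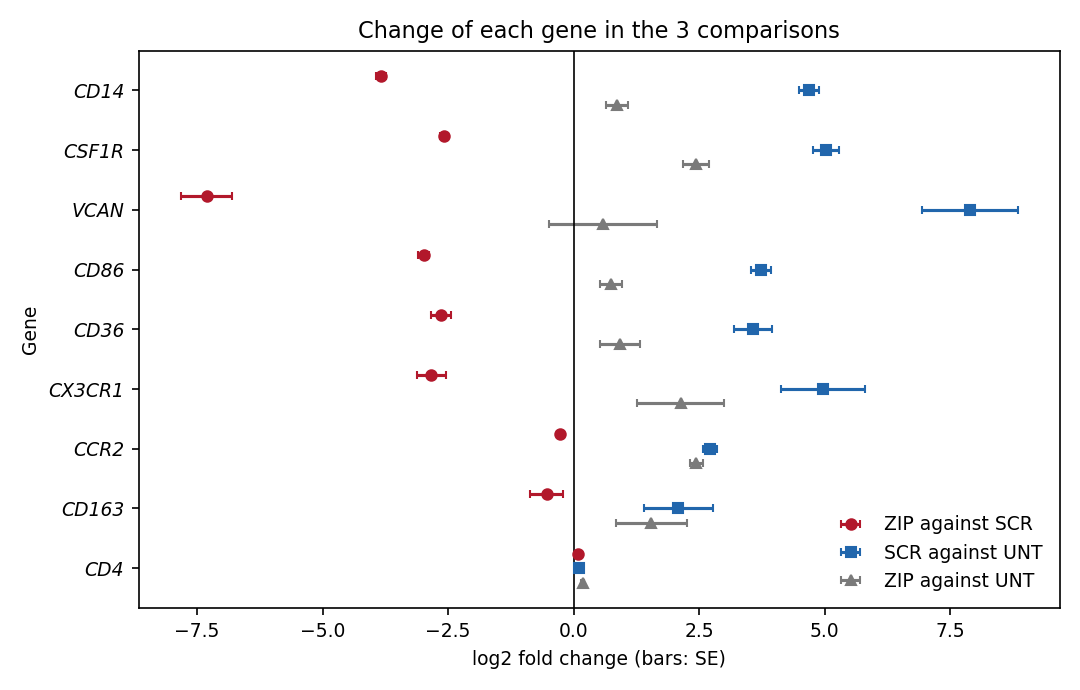
Log2 fold changes of the 9 genes in ZIP against SCR (circles), SCR against UNT (squares) and ZIP against UNT (triangles), with bars of 1 SE from the edgeR fits. The circles of CD14, CSF1R, VCAN, CD86, CD36 and CX3CR1 lie between -7.31 and -2.59, that of CCR2 at -0.27, that of CD163 at -0.53 and that of CD4 at 0.08.

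In SCR against UNT 9 of the 9 genes were called higher, where 64.9% of all 15832 genes tested were called and 32.7% were higher. Their median log2 fold change was 3.73, and that of all genes tested was 0.02. With library totals the median of all genes tested moved to 0.13, and the change of CD4 was 0.21. In ZIP against UNT 8 of the 9 were called higher, where 58.2% of all genes tested were called, 28.5% higher and 29.7% lower, and VCAN was not called (log2 fold change 0.59 ± 1.08, adjusted p = 0.656, edgeR). That count fell to 5 by DESeq2 and to 5 without ZIP 1. Both comparisons use the same UNT library, which was assumed to vary like the others. VCAN, CX3CR1 and CD163 were under the filter's minimum in UNT and passed through the transduced libraries.

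Levels of different genes were compared per kilobase of exon. CD4 led in every library, with 71.9 and 70.7 CPM per kilobase in ZIP, 67.7 and 67.2 in SCR and 62.7 in UNT. In ZIP CCR2 came next, at 7.22 and 7.15 CPM per kilobase, followed by CD14 at 1.85 and 2.21, CSF1R at 1.39 and 1.34 and CD86 at 1.23 and 1.26. The lower end in ZIP held CX3CR1 (0.197 and 0.102), CD163 (0.112 and 0.0995) and CD36 (0.105 and 0.0988), whose neighbouring ranges overlapped, and then VCAN (0.0110 and 0.00557).

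In SCR the order was different below CD4. CD14 was second, at 28.96 and 28.39 CPM per kilobase, followed by CD86 at 9.22 and 10.5. CCR2 (8.52 and 8.82) and CSF1R (7.96 and 8.53) followed as neighbours whose values overlapped. VCAN, CX3CR1 and CD36 ranged from 0.604 to 1.43 CPM per kilobase, and CD163 was last at 0.156 and 0.154. In UNT CCR2 was second at 1.32 CPM per kilobase, followed by CD14 at 1.11. With the longest transcript as the length, CCR2 and CD86 changed places in SCR 1, and CD36 moved above CD163 in both ZIP libraries and above CX3CR1 in ZIP 2.

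**Figure D3:**
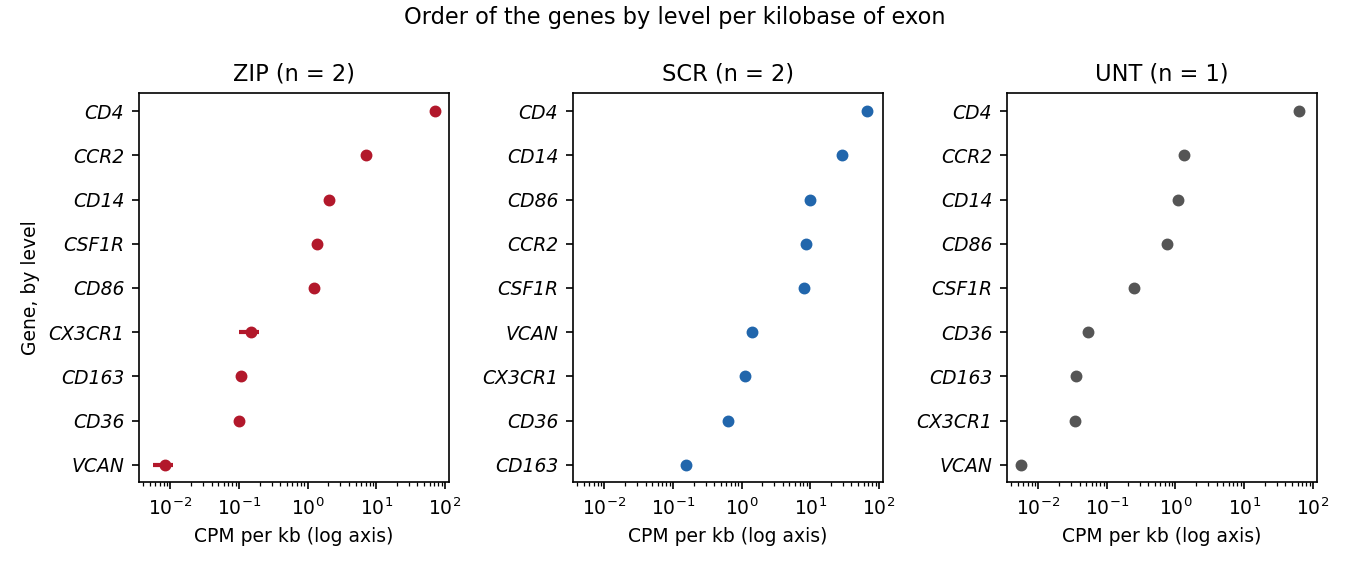
CPM per kilobase of union exon length (log axis) of the 9 genes in ZIP, SCR and UNT, ordered by the group mean, with points for means and lines from the lower to the higher library. CD4 is first in each panel, CD14 comes next in SCR but after CCR2 in ZIP and UNT, and VCAN is last in ZIP and UNT but above CX3CR1, CD36 and CD163 in SCR.

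Other monocyte and macrophage markers were read from a list of 32 genes, of which 25 could be tested in ZIP against SCR. In that list 21 were lower and 2 higher, with a median log2 fold change of -1.78. For this list and those that follow, the shares of all genes tested were 33.2% lower and 32.2% higher in ZIP against SCR. They were 32.7% higher and 32.2% lower in SCR against UNT, and 28.5% higher and 29.7% lower in ZIP against UNT. The lists were chosen with earlier results of these data known, so their counts may exceed those shares by choice. LILRB4, an inhibitory receptor of myeloid cells, had 6.92 and 6.32 CPM in ZIP, 46.3 and 46.3 in SCR and 0.709 in UNT, and fell by 2.80 ± 0.08 on the log2 scale in ZIP against SCR. The beta-glucan receptor CLEC7A fell by 3.03 ± 0.18, and the inhibitory receptor LILRB2 fell by 3.72 ± 0.27. LYZ, which encodes lysozyme, went the other way, with 1392 and 1394 CPM in ZIP, 1115 and 1120 in SCR and 323 in UNT. The other gene that rose was the complement gene C1QA, at 1.29 ± 0.20, named here after its value was seen. In SCR against UNT 26 of 28 tested genes of the list were higher and 0 lower, and in ZIP against UNT 12 were higher and 2 lower. For several genes a difference was built into their passing. CLEC10A, TREM1, LILRB1, SLAMF7, CD300E, MSR1 and MARCO passed the filter in ZIP against SCR only through their SCR libraries. In UNT these genes, and MS4A7, TREM2, MERTK, C1QA, CD93, C1QC and CD40, were under its minimum.

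Ligands and partners of the receptors moved mostly the same way. Of 20 tested genes 18 were lower and 2 higher in ZIP against SCR, with a median log2 fold change of -0.87. CCL2, the ligand of CCR2, had 2.74 and 2.77 CPM in ZIP, 64.5 and 64.7 in SCR and 10.0 in UNT. CCL2 was thus lower in ZIP than in UNT, with a log2 fold change of -1.86 ± 0.14 (edgeR adjusted p = 8.4e-11), while its receptor was higher in ZIP than in UNT. The hyaluronan receptor CD44, which shares that ligand with versican, fell by 0.99 ± 0.03 in ZIP against SCR. The SRC family kinase LYN fell by 0.89 ± 0.03, and the growth factor HBEGF fell by 2.65 ± 0.11.

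CSF1, the ligand of CSF1R, was chosen after its values were seen. It had 0.098 and 0.0413 CPM in ZIP, 7.96 and 7.58 CPM in SCR and 0.0834 CPM in UNT. The genes that rose were ADAMTS1, a protease that cleaves versican, by 1.30 ± 0.08, and HP, which encodes haptoglobin, by 0.46 ± 0.11, both also named after their values were seen. IL34 and CCL13 had no count in any library, and CX3CL1 had 0.0394 CPM in SCR 1 and no count in the others. In SCR against UNT 19 of 21 tested genes of the list were higher, and in ZIP against UNT 12 were higher and 2 lower. CSF1 and LY96 passed the filter in ZIP against SCR only through their SCR libraries, and CSF1 and CCL8 were under its minimum in UNT.

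Transcription factors of monocyte differentiation were lower in 16 and higher in 3 of 20 tested in ZIP against SCR, with a median log2 fold change of -0.66. CEBPB had 33.4 and 33.0 CPM in ZIP, 115 and 113 in SCR and 56.4 in UNT. The AP-1 genes JUN and FOS fell by 1.36 ± 0.03 and 1.44 ± 0.03 in ZIP against SCR. IRF8, a factor that directs progenitors to monocytes, had 59.2 and 56.9 CPM in ZIP, 98.7 and 101.8 in SCR and 2.84 in UNT. As with CCR2, both transduced groups were far above UNT for IRF8. The same held for JUN (99.35 and 94.9 CPM in ZIP, 7.47 in UNT) and FOS (49.3 and 48.9 in ZIP, 5.59 in UNT). It also held for KLF4 (6.14 and 5.75 in ZIP, 0.417 in UNT), named after its values were seen. The 3 that rose were CEBPA, VDR and RUNX1, by 0.54 ± 0.03, 0.57 ± 0.05 and 0.26 ± 0.03, named after their values were seen. In SCR against UNT 16 of 20 were higher and 2 lower, and in ZIP against UNT 11 were higher and 5 lower. MAF passed the filter in ZIP against SCR only through its SCR libraries. MAF, EGR2 and, narrowly, KLF4 were under the filter's minimum in UNT and passed through the transduced libraries.

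Genes of MHC class II presentation, which monocytes use to show antigen to CD4+ T cells, were lower in 6 and higher in 0 of 8 tested in ZIP against SCR (median -0.58). The invariant chain gene CD74 had 95.4 and 95.9 CPM in ZIP, 194.8 and 200.3 in SCR and 11.1 in UNT. HLA-DRA had 9.80 and 9.92 CPM in ZIP, 12.3 and 12.8 in SCR and 1.25 in UNT. HLA-DMA fell by 1.38 ± 0.15 in ZIP against SCR. HLA-DRB1, whose paralogs share reads and whose value is therefore uncertain, stood at -1.46 ± 0.45. Against UNT 8 of 8 were higher in SCR and 7 of 8 in ZIP. HLA-DRB1 passed the filter in ZIP against SCR only through its SCR libraries, so a difference was built into its passing. HLA-DRB1, HLA-DPA1, HLA-DPB1, HLA-DMB and, narrowly, CIITA were under the filter's minimum in UNT and passed through the transduced libraries. The count of lower genes in ZIP against SCR was 2 by DESeq2, 3 without SCR 1 and 3 without ZIP 1.

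**Figure D4:**
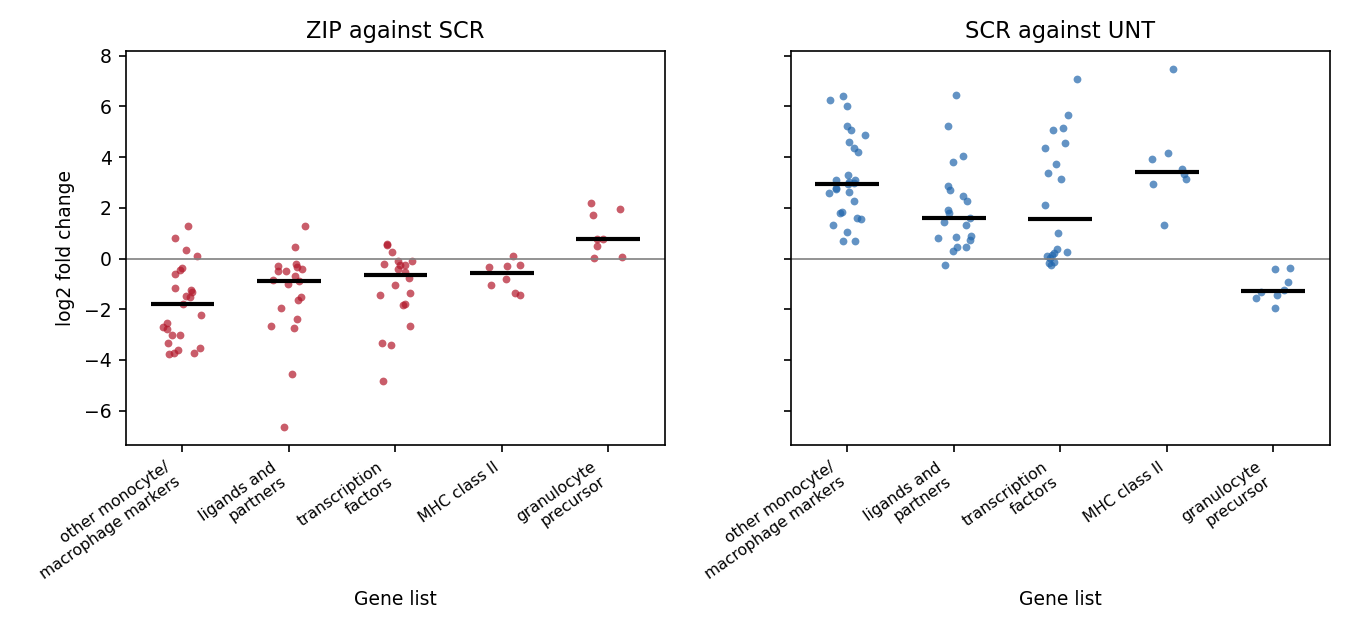
Log2 fold changes of the tested genes of 5 lists in ZIP against SCR (left) and SCR against UNT (right), 1 point per gene with a bar at the list's median. Medians of the monocyte, ligand, transcription factor and MHC class II lists are -1.78, -0.87, -0.66 and -0.58 on the left, where that of granulocyte precursor genes is 0.76, and 2.96, 1.58, 1.56 and 3.43 on the right, where it is -1.28. CD93, MAF and HLA-DRB1 had no count in UNT; with each at its lower bound against 3 counts, the medians on the right that moved were 2.87 for monocyte markers and 3.24 for MHC class II.

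Markers of other cell types were read beside these results. Of 8 granulocyte precursor genes, which mark the cell HL60 resembles, 6 were higher and 0 lower in ZIP against SCR, and 8 of 8 were lower in SCR against UNT. In ZIP against UNT 3 were higher and 4 lower. Their summed level was 23100 and 22450 CPM in ZIP, 11970 and 11960 in SCR and 24970 in UNT, and their part in the results above was not tested. PRTN3, a granule protease, had 3283 and 3182 CPM in ZIP, 820.8 and 833.3 in SCR and 3195 in UNT. CEBPE, a factor of late granulocyte maturation named after its values were seen, had 118.9 and 119.7 CPM in ZIP, 119.4 and 116.2 in SCR and 292.8 in UNT. B cell, platelet, erythroid, endothelial and fibroblast lists summed to at most 6.50 CPM in any library, with HBB, HBA1, MS4A1, PPBP, KDR and COL3A1 at 0 counts throughout. The dendritic cell list summed to 55.4 to 56.25 CPM in ZIP, 59.2 to 63.4 in SCR and 41.1 in UNT, nearly all of it FLT3, which progenitors also express. Of its 4 tested genes 2 were lower and 0 higher in ZIP against SCR (median -1.53), and of 5 tested 2 were higher and 1 lower in SCR against UNT. CD1C, a lipid antigen-presenting molecule, had 0.0327 and 0.0413 CPM in ZIP, 1.97 and 1.59 in SCR and 0.125 in UNT (edgeR adjusted p = 9.0e-09 in ZIP against SCR and 3.8e-06 in SCR against UNT). Its relative CD1A had 0.0653 and 0.0827 CPM in ZIP, 0.434 and 0.583 in SCR and 0.167 in UNT (adjusted p = 6.6e-04 in ZIP against SCR). Both were named after their values were seen, both passed the filter through SCR, and their part in the results above was not tested.

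Genes with the most similar profile were found over the 5 libraries, as the smallest root-mean-square difference of centred log2(CPM + 0.5). With 5 libraries in 3 groups, likeness means similar sizes of the differences between 3 groups on this scale, and little more. CD276 (0.0723) and CYTIP (0.124) were nearest to CD14, MMP14 (0.0925) and P2RX7 (0.120) to CSF1R, and OAS2 (0.140) and CDKN1A (0.146) to VCAN. APOBEC3B (0.0541) was nearest to CD86, CACNA2D4 (0.0582) to CD36 and SNX33 (0.103) to CX3CR1. CCR2 was most like ECI2 (0.0605), which had 16.8 and 17.4 CPM in ZIP, 22.3 and 21.5 in SCR and 3.25 in UNT. IPO13 (0.0187) was nearest to CD163 and PPP6R1 (0.0046) to CD4. The offset of 0.5 CPM flattens the change of scarce genes, which can then match genes with a smaller fold change. CD163 had 0.906 and 0.894 CPM in SCR and 0.209 in UNT, but IPO13 had 83.5 and 83.6 in SCR and 42.1 in UNT. CX3CR1 had 4.22 and 3.89 CPM in SCR and 0.125 in UNT, but SNX33 had 12.45 and 11.86 in SCR and 1.38 in UNT. The reverse was seen where the matched gene was the scarcer one. CD86 had 31.6 and 36.0 CPM in SCR and 2.54 in UNT, but APOBEC3B had 6.90 and 7.35 in SCR and 0.167 in UNT.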

How the data were processed

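RNA from 5 HL60 libraries was sequenced. The authors deposited raw counts per Ensembl gene ID, whole numbers without normalization, as read from the values. Bowtie2 and featureCounts appear in the submitters' processing notes, whereas the series' design text speaks of TopHat, Cufflinks and HTSeq. Neither genome build, annotation nor strand setting is given in the sources used here. Columns were matched to libraries by the description label, and 0 columns belonged to other samples.

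Symbols, coordinates and lengths came from GENCODE 29 (GRCh38), which named 44305 of 51055 IDs. The members and lists were chosen with earlier results of these data known. Low genes were removed by filterByExpr with a minimum count of 10 and a minimum total of 15. The rest were TMM-scaled and tested in R 4.3.3 with edgeR 4.0.16 (quasi-likelihood, Benjamini-Hochberg over all genes tested, 0.05). ZIP against SCR used 4 libraries. Comparisons with UNT used 5, and each fit had 2 residual degrees of freedom. SE are Wald values from the fit. Ratios with 3 or fewer counts in a group have exact 95% intervals. DESeq2 1.42.0 was an alternative. Named genes were all members, the 4 of smallest p per list, the 2 most abundant per marker list, and the 2 most alike profiles per member, not all of which are printed; markers at 0 were named for that. On simulated counts for ZIP against SCR (14539 genes), 93 of 100 genes changed 2-fold and 83 of 100 changed 1.5-fold were recovered, with 8 false calls. Recovery was lower in both comparisons with UNT. The changed genes were few, unlike in the data, and all were well counted. Recovery of scarce genes such as VCAN in ZIP was therefore not tested.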

Additional observations from a re-analysis of the deposited data

How the results depend on the processing

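Alternatives were DESeq2 size factors, library totals, no filter, DESeq2, each replicate left out, the replicate number as a block, and, for comparisons with UNT, the 2 groups alone. In ZIP against SCR 7 of the 9 genes were lower under each of them. The count of genes of the set higher there, CD4 alone, was 0 with library totals and 0 to 1 with a replicate left out. The MHC class II genes lower there numbered 2 by DESeq2 and 3 to 6 with a replicate left out, against 6. In SCR against UNT the 2 transcription factors that were lower numbered 0 with library totals and 1 by DESeq2. In ZIP against UNT the genes of the set that were higher numbered 5 by DESeq2 and 5 to 8 with a replicate left out, against 8, and all genes lower numbered 2851 by DESeq2, against 4705. The change of VCAN in ZIP against UNT, never called, ranged from -0.012 without ZIP 1 to 0.94 without ZIP 2. The cause of these shifts was not tested. The replicate numbers are shared by SCR and ZIP, but the differences between replicates 1 and 2 correlated at only 0.08 between the groups across 8802 genes, so the numbers were not taken as pairs. With the replicate block 4790 genes were higher and 4919 lower in ZIP against SCR, against 4712 and 4859, and no call of the 9 genes changed. Depth limits CD163, and CX3CR1 and VCAN outside SCR.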

Other observations

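Genes within 250 kb of each member were looked at after the values above were seen, in ZIP against SCR by the edgeR test. Of all genes tested there, 33.2% were lower and 32.2% higher. Around CD14 11 of 14 tested neighbours were lower and 0 higher, with a median log2 fold change of -0.33. Among them the adaptor gene APBB3 stood at -1.03 ± 0.06 and SRA1 at -0.76 ± 0.05, against -3.83 for CD14 itself. Around CSF1R 1 of 7 was lower and 2 were higher. These were PPARGC1B at 0.44 ± 0.04 and TCOF1, a factor of ribosomal RNA synthesis, at 0.23 ± 0.03. Around CCR2 2 of 3 were lower and 0 higher, around VCAN 1 of 2 was lower and 0 higher, and around CD86 3 of 6 were lower and 1 higher. Near CCR2 the chemokine receptor CCR1 averaged 8.56 CPM in ZIP, 27.95 CPM in SCR and 16.6 CPM in UNT, so it was lower in ZIP than in UNT where CCR2 was higher. Around CX3CR1 3 of 8 were higher and 2 lower, and around CD4 8 of 31 were higher and 10 lower. CD163 and CD36 had 0 tested neighbours.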
